A study of Mus musculus with 57 samples.

Results

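The genes described here are Tph2, the enzyme gene for neuronal serotonin synthesis, and 9 serotonin receptor genes, Htr1a, Htr1b, Htr1f, Htr2a, Htr2c, Htr3a, Htr4, Htr5a and Htr7. They were chosen by name as part of the system on which fluoxetine acts, and each was matched by its symbol to 1 row, 10 of the 51456 genes in the table. The RNA came from prefrontal cortex, taken from C57BL/6N mice on postnatal day 25. All mice had been dosed through the mother's milk from postnatal day 3 to 24. The arms were Shank2 heterozygous (HT) mice given fluoxetine (10 libraries), lithium (10) or vehicle (10), and wild-type (WT) mice given fluoxetine (10), lithium (9) or vehicle (8), each with females and males. Shank2 encodes a scaffold protein of the excitatory synapse. The labels do not name the heterozygous allele, the doses, the litters or the vehicle.

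Serotonin is made by neurons of the brainstem raphe nuclei, whose axons spread through the cortex. Tryptophan hydroxylase sets the rate of its synthesis, and the serotonin transporter, the target of fluoxetine, takes it back up into the axon. Cortical neurons carry the receptors: HTR1 and HTR5 receptors couple to inhibitory G proteins, HTR2 receptors to Gq, HTR4 and HTR7 to the stimulatory Gs, and HTR3A is a subunit of a cation channel.

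Levels are the deposited normalized counts, and log2 differences are on the scale of log2(normalized count + 1). Between 21509 and 23264 genes were above 0 in a library, and the read depth of a library is unknown. Shank2 lay between 3877 and 5006 in HT libraries and between 6762 and 11791 in WT libraries. WT vehicle male 2, HT fluoxetine male 3 and WT vehicle female 1 stood apart: their median correlations with the other libraries were 0.968, 0.970 and 0.977, and all others were at 0.981 or above. WT vehicle male 2 also had a trend of expression with transcript length of -0.33, against -0.15 to 0.17 in the other 56. Markers of striatal projection neurons, a list of 21 genes, summed to between 13175 and 36311 in HT libraries and between 13355 and 53013 in WT libraries, and the highest mean of these markers was in WT vehicle male 1. Cortical excitatory markers, such as Slc17a7, the vesicular glutamate transporter (mean 58629), and Tbr1 (mean 4186), were present in every library.

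Upstream sequence is shown for Tph2 and Htr1f, the members called lower in HT mice over all treatments, to set the starts of both genes side by side. The sequences come from RefSeq on GRCm38.p6, whose promoter table held 8 of the 10 members. Both genes are on the minus strand, and each run is printed 5′ to 3′ up to the base before the annotated start. The Tph2 window is chr10:115185023-115185272 and the Htr1f window is chr16:65105855-65106034. Capitals mark TATAAA, a match to a TATA box.
Tph2: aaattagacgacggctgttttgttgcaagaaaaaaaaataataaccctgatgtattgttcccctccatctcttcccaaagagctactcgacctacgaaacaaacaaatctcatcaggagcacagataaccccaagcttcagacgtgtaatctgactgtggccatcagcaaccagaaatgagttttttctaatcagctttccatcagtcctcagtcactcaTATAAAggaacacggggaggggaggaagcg
Htr1f: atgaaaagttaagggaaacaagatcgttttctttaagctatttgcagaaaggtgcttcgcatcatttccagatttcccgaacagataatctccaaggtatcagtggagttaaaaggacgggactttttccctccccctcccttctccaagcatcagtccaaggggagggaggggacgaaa
The Tph2 window of 250 bases held 1 TATAAA close to the start and 7 CpG dinucleotides. The Htr1f window was 180 bases long, because 70 bases between the RefSeq start and an earlier GENCODE start were left out, and it held 5 CpG dinucleotides and no TATAAA. Neither window held the GC box GGGCGG or the cyclic AMP response motif TGACG on either strand. Among 32851 RefSeq windows of 250 bases, 12.4% held TATAAA, 32.7% held GGGCGG and 17.8% held TGACG.

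All 10 members were above 0 in all 57 libraries, and all 10 passed the minimum mean of 10. Per kilobase of the longest transcript, Htr2a (373 normalized counts per kb) and Htr2c (358) were the highest, and Htr2c (571.6) stood above Htr2a (373) when the median transcript length was used. Both encode Gq-coupled receptors, and HTR2A is the receptor through which psychedelics act. Htr1a (147), Htr5a (145) and Htr3a (124) followed, then Htr1b (98.4), Htr7 (61.0) and Htr1f (34.5). By median transcript length Htr1b was at 155.1 per kb, above Htr1a, Htr5a and Htr3a (147, 145 and 127), so its place in the order depends on the length used. Htr2a and Htr2c, and Htr1a and Htr5a, overlapped across libraries in level per kilobase. Tph2 (7.42) and Htr4 (7.32) were the lowest and could not be ranked against each other.

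**Figure D1:**
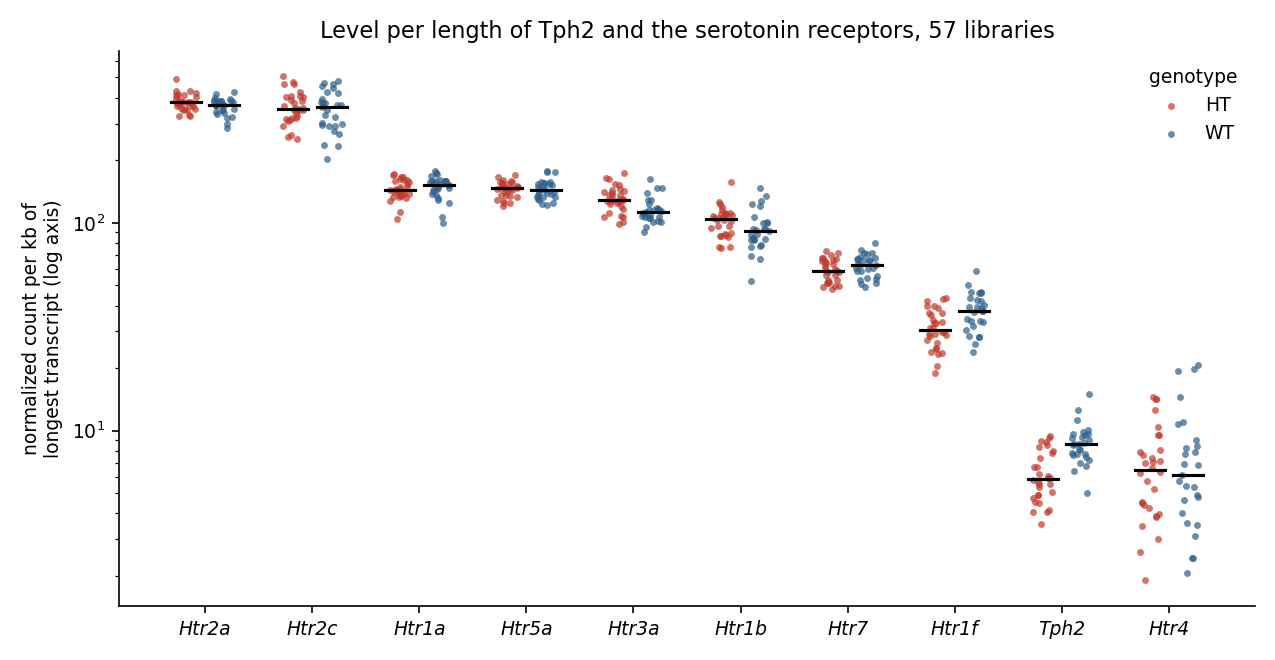
Level of each gene in normalized counts per kilobase of its longest transcript, on a log axis, in HT libraries (red, left) and WT libraries (blue, right); each point is 1 library and each bar a median. Htr2a and Htr2c lie at the top, near 373 and 358 per kb on average, and Tph2 and Htr4 at the bottom, near 7.42 and 7.32 per kb.

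Tph2 and Htr4 were the members at the edge of what could be judged. Tph2 averaged 19.5 normalized counts over all libraries, with 1 library under 10, and ranged from 9.31 to 39.6. Htr4 averaged 34.1 normalized counts, with 2 libraries under 10, and its SD within an arm was 10.9 to 37.9. The 95% interval of the HT against WT difference of Htr4 over all treatments ran from -0.48 to 0.37 on the log2 scale. For Htr4, differences of that size in either direction could not be told from 0. The remaining 8 members averaged at least 88.9 normalized counts.

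Tph2 (chromosome 10, 115078641 to 115185022, GRCm38) was lower in HT mice than in WT mice. In normalized counts, the lowest, median and highest Tph2 levels were 10.7, 14.8 and 23.5 in HT fluoxetine libraries and 18.3, 20.9 and 39.6 in WT fluoxetine libraries. They were 9.31, 17.0 and 22.5 in HT lithium libraries and 13.1, 20.0 and 26.5 in WT lithium libraries. They were 10.7, 14.9 and 24.8 in HT vehicle libraries and 21.1, 24.8 and 33.1 in WT vehicle libraries. The genotypes overlapped in each treatment, yet 26 of 30 HT libraries lay below the WT median over all treatments, 8 of 10 under fluoxetine, 6 of 10 under lithium and 10 of 10 under vehicle.

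Over all treatments Tph2 averaged 16.3 ± 4.5 normalized counts in HT libraries (SD, n = 30) and 23.0 ± 5.2 in WT libraries (SD, n = 27). By limma with Benjamini-Hochberg adjustment over 16659 genes, its log2 difference was -0.49 ± 0.09 (SE), a ratio of 0.712, with an adjusted p of 0.00074. Leaving out any 1 library kept this call, with adjusted p between 0.00018 and 0.0015, and without WT vehicle male 2 it was 0.0011, without HT fluoxetine male 3 it was 0.00073 and without WT vehicle female 1 it was 0.0011. Of the 10 members, 3 were called in this comparison, beside 3.74% of all genes tested: 1 was higher, beside 1.62%, and 2 were lower, beside 2.12%. The members' median log2 difference was -0.01, and that of all genes was 0.00.

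By treatment, the Tph2 log2 difference of HT against WT was -0.52 ± 0.16 under fluoxetine (adjusted p = 0.17), -0.29 ± 0.16 under lithium (adjusted p = 0.68) and -0.65 ± 0.17 under vehicle (adjusted p = 0.041, limma). Tph2 was the 1 of 10 members called under vehicle, beside 0.762% of all genes. That call was lost when any of 12 single vehicle libraries was left out. Among HT vehicle libraries these were female 1 (adjusted p = 0.084), female 2 (0.057), female 3 (0.068), female 5 (0.094), male 1 (0.056), male 3 (0.079) and male 4 (0.073). Among WT vehicle libraries they were female 1 (adjusted p = 0.091), female 2 (0.055), female 3 (0.063), male 2 (0.083) and male 3 (0.059). Under other settings it was lost with no filter (0.070), quantile normalization (0.052), only the groups compared (0.25), 6 arms with sex as a term (0.069) and array weights (0.075). No member was called under fluoxetine, beside 0.222% of all genes, or under lithium, beside 0.114%, in the limma fit. At an unadjusted p under 0.05, 3 members passed under fluoxetine, beside 10.5% of genes, and 1 under lithium, beside 7.75%. The lithium effect on Tph2 differed between the genotypes by 0.36 ± 0.23 (HT minus WT, adjusted p = 0.75), and the fluoxetine effect by 0.13 ± 0.23 (adjusted p = 0.94). In the drug-treated libraries alone, a comparison added after the data were seen, Tph2 averaged 16.3 ± 4.5 in HT libraries and 21.9 ± 5.4 in WT libraries. There its log2 difference was -0.41 ± 0.11 (adjusted p = 0.047, limma), the 1 member called beside 1.31% of genes, and the call was lost in 35 of 57 fits that each left out 1 library, whose adjusted p ran from 0.020 to 0.079 over all 57, 0.041 without WT vehicle male 2, 0.056 without HT fluoxetine male 3 and 0.047 without WT vehicle female 1. Htr1f, at -0.32 ± 0.09 (adjusted p = 0.070), passed there without HT fluoxetine female 3, HT lithium female 5, HT lithium male 5 or WT lithium female 4 (adjusted p = 0.020 to 0.049).

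In females the Tph2 log2 difference over all treatments was -0.60 ± 0.13 (adjusted p = 0.012, limma) and in males it was -0.38 ± 0.13 (adjusted p = 0.054). In females 2 of 10 members were called, beside 0.648% of genes, and in males 0 of 10, beside 9.64%, with 2 members under an unadjusted p of 0.05, beside 26.6% of genes. Tph2 passed in males in 9 of 57 fits that each left out 1 library, with adjusted p from 0.041 to 0.050. The library left out was HT fluoxetine female 5, HT fluoxetine male 2, HT lithium female 3, HT lithium female 5, HT vehicle female 4, HT vehicle male 2, WT fluoxetine female 5, WT lithium male 3 or WT vehicle male 1. With only the groups compared, the call on Tph2 was lost in females (adjusted p = 0.075) and made in males (0.037). In males it was also made with array weights (0.049), plain moderation (0.040) and the striatal marker mean as a term (0.040), so the sexes fell on different sides of the threshold only under some settings. The difference of the genotype effect between the sexes was tested under vehicle, where it was -0.42 ± 0.33 for Tph2 (female minus male, adjusted p = 0.56).

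**Figure D2:**
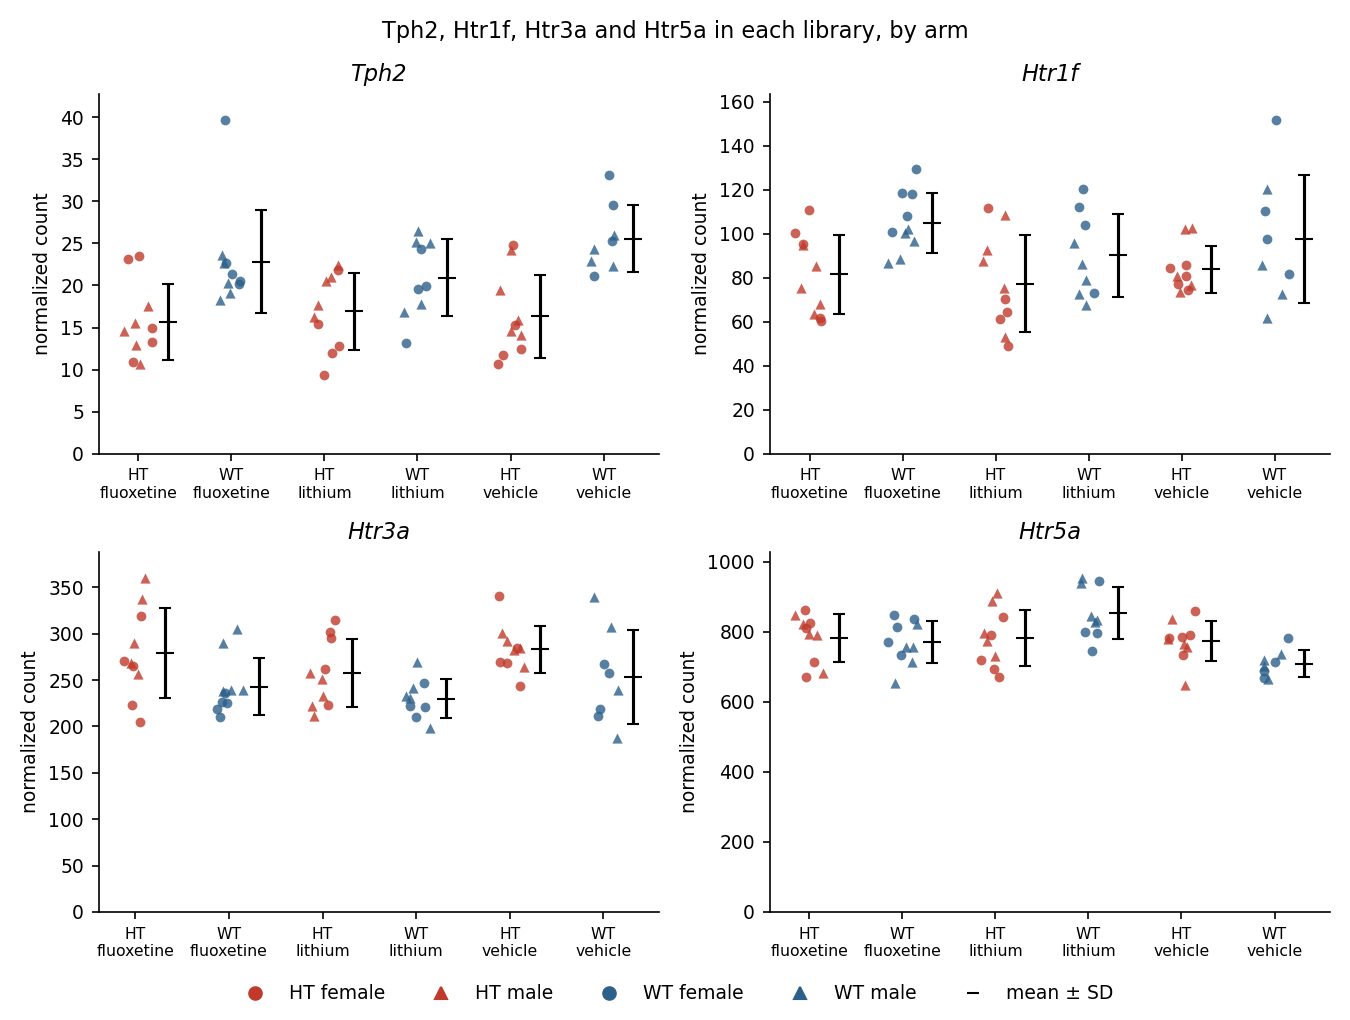
Normalized counts of Tph2, Htr1f, Htr3a and Htr5a in each library, by arm, with HT (red) left of WT (blue) and the mean ± SD beside each arm; circles are females and triangles males. For Tph2 the genotypes overlap, with 26 of 30 HT libraries below the WT median, and for Htr5a 8 of 9 WT lithium libraries lie above all WT vehicle libraries.

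Other genes of serotonin-producing neurons were read beside Tph2. Fev, a transcription factor that marks raphe serotonin neurons, was at 0 in 50 of 57 libraries (mean 0.27 in HT and 0.043 in WT), and En1, a midbrain and hindbrain factor, was at 0 in 48. Gata3 was at 0 in 35 libraries. The serotonin transporter gene Slc6a4 averaged 4.23 ± 3.29 normalized counts in HT libraries and 2.78 ± 2.26 in WT libraries, below the minimum for testing. Slc18a2, the vesicular monoamine transporter, averaged 19.7 ± 9.8 in HT libraries and 24.9 ± 20.6 in WT libraries, a log2 difference of -0.15 ± 0.19 (adjusted p = 0.71, limma). Ddc, the decarboxylase that completes serotonin synthesis, averaged 111 ± 24.1 in HT libraries and 120.2 ± 23.5 in WT libraries, -0.12 ± 0.08 (adjusted p = 0.42). Tph1, the peripheral and pineal tryptophan hydroxylase, averaged 11.9 ± 4.6 in HT libraries and 8.19 ± 3.95 in WT libraries, a log2 difference of 0.50 ± 0.16 that did not pass (adjusted p = 0.059).

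The 13 raphe markers summed to 1247 to 1518 in HT libraries and 1352 to 1748 in WT libraries. The largest means in this sum were those of Maob (619), Crhbp (378), Slc22a3 (151), Gata2 (137) and Ddc (115). The mean log2 deviation of the 13 markers from their averages over all libraries was -0.010 ± 0.21 in HT libraries and 0.011 ± 0.17 in WT libraries (SD). Of the 13 markers, 7 had a mean under 10. Of the 6 tested, 1 was higher (beside 1.62% of all genes) and 2 were lower (beside 2.12%) in HT mice over all treatments. They were Slc22a3, Maob and Crhbp, which cells other than raphe neurons also express. In bulk tissue, fewer cells or axons of a type and less RNA per cell cannot be told apart, and the part of any cell type in the Tph2 difference was not tested.

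**Figure D3:**
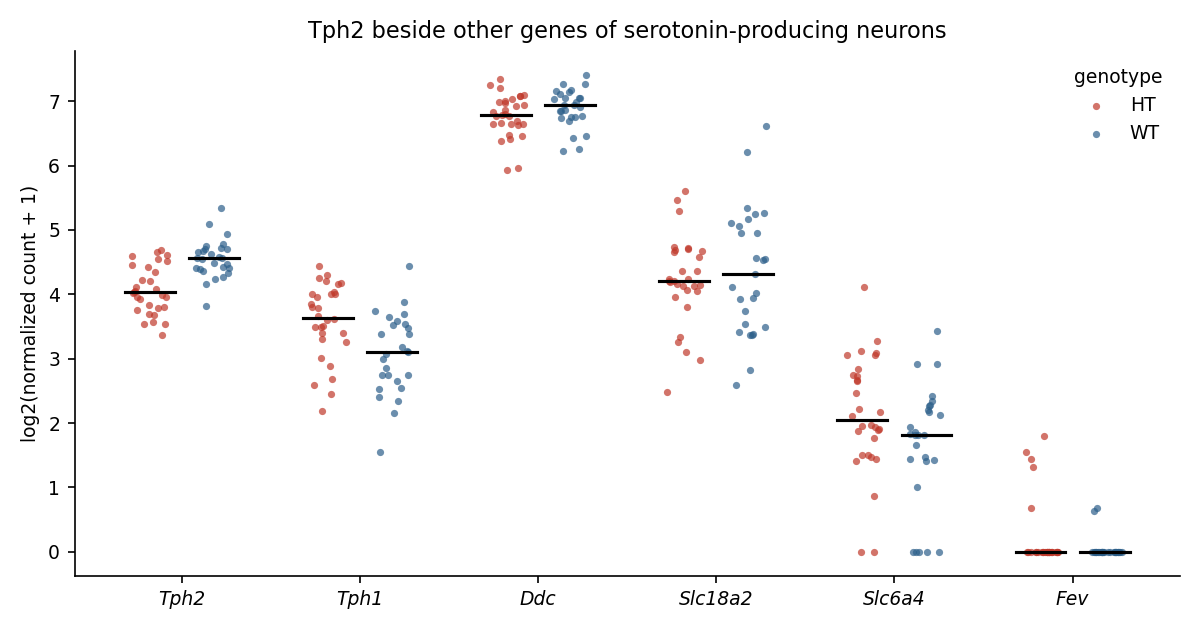
Level of Tph2 and of 5 other genes of serotonin synthesis, storage, uptake and identity, as log2(normalized count + 1), in HT (red, left) and WT (blue, right) libraries; bars are medians. Tph2 is lower in HT libraries, 16.3 against 23.0 normalized counts on average, while Fev is at 0 in 50 of 57 libraries.

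Htr1f (chromosome 16, 64924729 to 65105854), a receptor coupled to inhibitory G proteins and, in humans, the target of a migraine drug, was lower in HT mice over all treatments. In normalized counts, its lowest, median and highest levels were 60.2, 80.3 and 110.6 in HT fluoxetine libraries and 86.8, 101 and 129 in WT fluoxetine libraries. They were 48.9, 72.8 and 112 in HT lithium libraries and 67.5, 86.4 and 120.5 in WT lithium libraries. They were 73.7, 80.6 and 103 in HT vehicle libraries and 61.7, 91.6 and 152 in WT vehicle libraries. The genotypes overlapped in each treatment, and 24 of 30 HT libraries lay below the WT median.

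Over all treatments Htr1f averaged 80.9 ± 17.2 normalized counts in HT libraries (SD, n = 30) and 97.8 ± 21.0 in WT libraries (SD, n = 27), a log2 difference of -0.27 ± 0.08 (adjusted p = 0.034, limma). The difference was -0.47 ± 0.11 in females (adjusted p = 0.021) and -0.07 ± 0.11 in males (adjusted p = 0.73). Means in HT and WT males were 87.2 and 85.0 under vehicle, 83.4 and 80.3 under lithium, and 77.4 and 94.9 under fluoxetine. In females the HT mean was the lower under each treatment. Under vehicle the sexes differed in the genotype effect by -0.48 ± 0.28 (female minus male, adjusted p = 0.41). The call over all treatments was lost without any of 7 single libraries: HT fluoxetine female 2, HT lithium female 4, HT lithium male 3, WT lithium female 1, WT lithium female 3, WT vehicle female 1 and WT vehicle male 1. Its adjusted p then lay between 0.051 and 0.055, and without WT vehicle male 2 it was 0.041 and without HT fluoxetine male 3 it was 0.047. The call was also lost with no filter (0.065), quantile normalization (0.054), 6 arms with sex as a term (0.051) and the striatal marker mean as a term (0.089). The call in females was lost without 3 single libraries (HT fluoxetine female 2, WT lithium female 3 or WT vehicle female 1), with adjusted p from 0.054 to 0.056. It was also lost in females with only the groups compared (0.051) and with the striatal marker mean as a term (0.13).

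Htr3a (chromosome 9, 48899213 to 48911099), the channel subunit that marks a class of cortical interneurons, was higher in HT mice. In normalized counts, its lowest, median and highest levels were 204, 269.7 and 359.7 in HT fluoxetine libraries and 210.0, 237 and 305 in WT fluoxetine libraries. They were 211, 255 and 315 in HT lithium libraries and 198, 230.1 and 269 in WT lithium libraries. They were 244, 283 and 340.1 in HT vehicle libraries and 187, 248 and 339 in WT vehicle libraries. The ranges overlapped in each treatment, and 24 of 30 HT libraries lay above the WT median.

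Htr3a averaged 273 ± 38.5 normalized counts in HT libraries (SD, n = 30) and 242 ± 35.3 in WT libraries (SD, n = 27), a log2 difference of 0.18 ± 0.05 (adjusted p = 0.031, limma). Without WT vehicle male 2 the adjusted p was 0.012, without HT fluoxetine male 3 it was 0.048, without WT vehicle female 1 it was 0.027, and without HT lithium female 4, WT lithium female 1 or WT vehicle female 3 it was 0.050 to 0.051, above the threshold. In females alone Htr3a had an adjusted p of 0.12, and of 0.046 without HT lithium female 5. With no filter the adjusted p was 0.062, and with the striatal marker mean as a term the difference was 0.12 (adjusted p = 0.12). Markers of interneurons from the caudal ganglionic eminence, the class that carries Htr3a, summed to 15182 to 23392 in HT libraries and 15520 to 27372 in WT libraries. Of these 12 markers, 1 was higher in HT mice (Vip, log2 difference 0.21 ± 0.05), beside 1.62% of all genes, and none was lower, beside 2.12%. The mean log2 deviation of the 12 markers from their averages over all libraries was -0.002 ± 0.22 in HT libraries and 0.003 ± 0.25 in WT libraries (SD).

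The other inhibitory receptors did not pass the test between genotypes. Htr1a, the receptor of pyramidal neurons that is also the somatic autoreceptor of raphe neurons, averaged 649.6 ± 71.0 normalized counts in HT libraries and 665.5 ± 83.2 in WT libraries, a log2 difference of -0.03 with a 95% interval from -0.12 to 0.06. Htr1b, found on axon terminals, averaged 484 ± 80.7 in HT libraries and 444 ± 101 in WT libraries, 0.14 with an interval from -0.01 to 0.29. With the striatal marker mean as a term the Htr1b difference was 0.23 (adjusted p = 0.032, limma). Htr1b overlaps an antisense gene, D430036J16Rik (mean 118 normalized counts), and no source used here says whether counting used strand, so part of its level is uncertain. Htr5a averaged 779 ± 67.1 in HT libraries and 780.5 ± 83.0 in WT libraries, 0.01 with an interval from -0.06 to 0.07.

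Among the Gq-coupled receptors, Htr2a averaged 2143 ± 199.8 normalized counts in HT libraries and 2038 ± 185 in WT libraries, a log2 difference of 0.08 with an interval from 0.01 to 0.15 (adjusted p = 0.21, limma). Under lithium 10 of 10 HT libraries lay above the WT median of Htr2a, and the difference was 0.11 ± 0.06 (adjusted p = 0.69). Htr2c, whose transcript is edited by ADAR enzymes, averaged 1775 ± 314 in HT libraries and 1717 ± 377 in WT libraries, 0.07 with an interval from -0.09 to 0.23. Of the Gs-coupled receptors, Htr7 averaged 188 ± 22.9 in HT libraries and 198 ± 24.8 in WT libraries, -0.07 with an interval from -0.17 to 0.03. Under vehicle 10 of 10 HT libraries lay below the WT median of Htr7, as for Tph2, and 5 of 8 WT libraries lay above every HT library. Unlike Tph2, Htr7 was not called under vehicle (limma), and its fitted difference there is not given here. Htr4 averaged 32.3 ± 16.2 in HT libraries and 36.2 ± 24.6 in WT libraries, -0.05 with the interval given above.

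**Figure D4:**
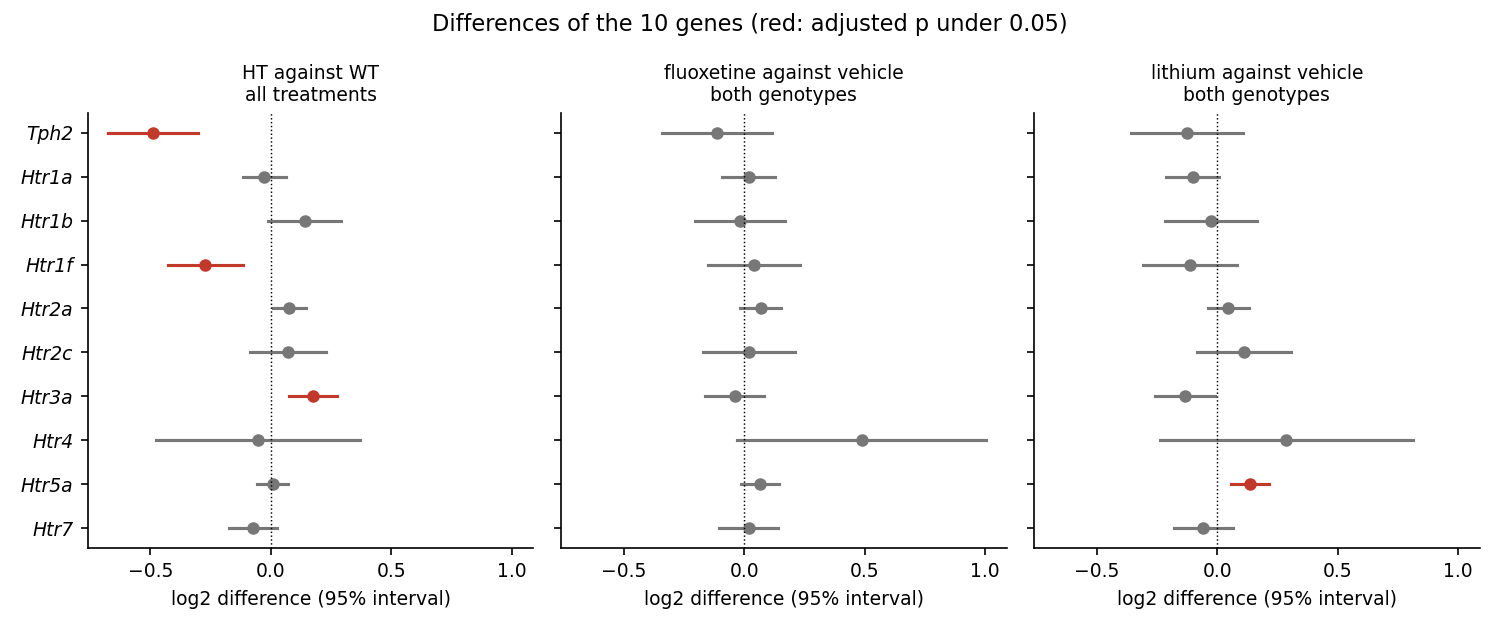
Log2 difference of each gene with its 95% interval, for HT against WT over all treatments, fluoxetine against vehicle and lithium against vehicle over both genotypes; red marks an adjusted p under 0.05. Tph2 (-0.49), Htr1f (-0.27) and Htr3a (0.18) pass between genotypes, Htr5a (0.14) passes under lithium, and no gene passes under fluoxetine.

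No member passed the test under fluoxetine. Of the 10 members, 0 were called in HT mice, beside 0.33% of all genes, 0 in WT mice, beside 0.84%, and 0 over both genotypes, beside 4.75%, by limma. At an unadjusted p under 0.05 the members passing were 1 in HT mice, beside 14.6% of genes, 2 in WT mice, beside 15.2%, and 0 over both genotypes, beside 20.2%. The 95% intervals over both genotypes ran from -0.34 to 0.12 for Tph2, from -0.09 to 0.13 for Htr1a, from -0.20 to 0.17 for Htr1b and from -0.02 to 0.15 for Htr2a. For the members listed, these intervals bound the size of a change that the data could hold. They do not show that the levels were equal. The largest difference of a member over both genotypes was 0.49 in size, for Htr4, whose interval is not among those listed.

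Htr4 had the largest fitted fluoxetine difference. In normalized counts, its lowest, median and highest levels were 21.2, 35.1 and 66.5 in HT fluoxetine libraries and 8.87, 20.4 and 48.4 in HT vehicle libraries. They were 16.4, 28.8 and 90.8 in WT fluoxetine libraries and 9.58, 20.7 and 96.2 in WT vehicle libraries. The log2 difference was 0.75 ± 0.35 in HT mice (adjusted p = 0.31, limma) and 0.23 ± 0.37 in WT mice (adjusted p = 0.83), and the ranges overlapped in both. The striatal marker mean moved in the same comparison: on the log2 scale it was 0.20 ± 0.93 in HT fluoxetine libraries (-0.67 to 1.82) and -0.54 ± 0.14 in HT vehicle libraries (-0.71 to -0.32). The 21 markers summed to 13175 to 36311 in HT fluoxetine libraries and 14237 to 16652 in HT vehicle libraries. With the marker mean as a term the Htr4 difference in HT mice was 0.23 (adjusted p = 0.72). The part of these markers in the Htr4 difference was not tested beyond the fit that includes them. The members that passed at an unadjusted p under 0.05 in WT mice were Htr2a, 0.13 ± 0.06 (adjusted p = 0.29), and Htr5a, 0.12 ± 0.06 (adjusted p = 0.31). The fluoxetine effect differed between genotypes for 0 of 10 members and for 0 of all 16659 genes (0%) after adjustment, and for 0 members at an unadjusted p under 0.05, beside 7.71% of genes.

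Htr5a (chromosome 5, 27842149 to 27855088) was higher under lithium than under vehicle in WT mice. In normalized counts, its lowest, median and highest levels were 746, 835 and 953 in WT lithium libraries and 665.0, 708 and 783.5 in WT vehicle libraries, and 8 of 9 lithium libraries lay above every vehicle library. They were 672, 783 and 912 in HT lithium libraries and 648, 781 and 859 in HT vehicle libraries, ranges that overlapped. WT vehicle females (mean 714) and males (705) had the lowest Htr5a means of the 12 groups. Of 10 HT vehicle libraries, 9 lay above the WT vehicle median and 5 above every WT vehicle library. In fluoxetine against lithium over both genotypes, which uses no vehicle library, Htr5a did not reach an unadjusted p under 0.05 (limma). Within WT mice its means were 822 in females and 880 in males under lithium, and 801 and 740 under fluoxetine. The drugs were not compared within WT mice alone. The part of the WT vehicle level in the lithium difference was not tested. In WT mice Htr5a averaged 854 ± 74.7 under lithium (SD, n = 9) and 709.5 ± 38.6 under vehicle (SD, n = 8), a log2 difference of 0.26 ± 0.06 (adjusted p = 0.0047, limma). It was the 1 of 10 members called there, beside 8.53% of all genes, so a count of 1 is near the background.

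In HT mice the Htr5a log2 difference under lithium was 0.01 ± 0.05 (adjusted p = 0.96), with 0 of 10 members called beside 0.888% of genes and 1, Htr1a, under an unadjusted p of 0.05 beside 12.8%. The lithium effect on Htr5a differed between the genotypes by -0.25 ± 0.08 (HT minus WT), which did not pass over all genes (adjusted p = 0.61), where 0% of genes did. It was the 1 member with an unadjusted p under 0.05 there, beside 7.31% of genes. Over both genotypes the Htr5a difference was 0.14 ± 0.04 (adjusted p = 0.017), the 1 member called beside 13.3% of genes. Within WT mice it was 0.32 ± 0.08 in males (adjusted p = 0.0082, beside 10.2% of genes) and 0.20 ± 0.08 in females (adjusted p = 0.62, beside 0% of genes). The call in males was lost with only the groups compared (0.18) and with the length trend as a term (0.35).

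Every fit that left out 1 library kept the call on Htr5a in WT mice, and the adjusted p was 0.0077 without WT vehicle male 2, 0.0029 without HT fluoxetine male 3 and 0.012 without WT vehicle female 1. The trend of expression with transcript length had a median of 0.051 in WT lithium libraries (-0.067 to 0.17) and -0.050 in WT vehicle libraries (-0.33 to 0.053). It was likewise higher in the other drug arms. Its medians were 0.096 in HT lithium, 0.042 in HT fluoxetine and 0.038 in WT fluoxetine libraries, against -0.040 in HT vehicle libraries. The part of this trend in the Htr5a difference was not tested beyond the fit that includes it. With that trend as a term the Htr5a difference in WT mice stayed at 0.26 and its adjusted p became 0.056, and over both genotypes it was 0.14 with an adjusted p of 0.16. The summed level of 16 cortical excitatory neuron markers was 92448 to 100958 in WT lithium libraries and 75025 to 97230 in WT vehicle libraries. Of these markers 0 passed in that comparison, beside 8.53% of all genes.

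No other member passed under lithium. Htr1a averaged 604 ± 68.8 normalized counts in HT lithium libraries and 680.3 ± 59.6 in HT vehicle libraries, a log2 difference of -0.18 ± 0.08 (adjusted p = 0.29, limma), and all 10 lithium libraries lay below the vehicle median. Htr3a differed by -0.13 ± 0.06 over both genotypes (adjusted p = 0.15), and passed without WT vehicle male 1 (-0.17, adjusted p = 0.034). Htr2c differed by 0.24 ± 0.14 in WT mice (adjusted p = 0.32), and passed with the striatal marker mean as a term (0.34, adjusted p = 0.045). Tph2 averaged 20.9 ± 4.6 in WT lithium libraries and 25.6 ± 4.0 in WT vehicle libraries, -0.31 ± 0.17 (adjusted p = 0.27). In fluoxetine against lithium over both genotypes, 0 members were called beside 4.66% of genes, and 1, Htr1a at 0.12 ± 0.05, had an unadjusted p under 0.05, beside 20.7%. Females against males gave 0 called members beside 0.108% of genes, and 0 at an unadjusted p under 0.05, beside 5.36%.

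Further serotonin receptor genes were read from a list of 5. Htr2b (mean 2.46) and Htr3b (mean 0.48) were below the minimum for testing, and Htr1d, Htr5b and Htr6 were tested with none called between genotypes or under a drug. Htr5b averaged 33.8 ± 9.6 normalized counts in HT libraries and 40.7 ± 9.8 in WT libraries, a log2 difference of -0.28 ± 0.09 (adjusted p = 0.082, limma).

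Of 17 genes for serotonin synthesis, uptake, storage and breakdown, 14 were tested, and over all treatments 1 was higher (beside 1.62% of all genes) and 3 were lower (beside 2.12%) in HT mice. Slc22a3, a low-affinity monoamine transporter, averaged 166 ± 27.0 normalized counts in HT libraries and 133 ± 23.5 in WT libraries, a log2 difference of 0.33 ± 0.06 (adjusted p = 0.00084, limma). Maob, a monoamine oxidase, averaged 593 ± 57.1 in HT libraries and 648 ± 52.6 in WT libraries, -0.13 ± 0.04 (adjusted p = 0.024). Aldh2, an aldehyde dehydrogenase, fell by 0.11 ± 0.02, and Qdpr, which regenerates the cofactor of tryptophan hydroxylase, fell by 0.13 ± 0.04. Maoa, the oxidase that prefers serotonin, averaged 1028 ± 94.2 in HT libraries and 1022 ± 68.6 in WT libraries, 0.01 ± 0.03 (adjusted p = 0.92). Under fluoxetine over both genotypes 1 of the 14, Aldh2, was higher (0.13 ± 0.03, adjusted p = 0.0061, beside 4.75% of all genes called), and under lithium (beside 13.3%) the same gene was higher by 0.09 ± 0.03 (adjusted p = 0.049). In HT mice alone Aldh2 was higher under fluoxetine by 0.17 ± 0.04, beside 0.33% of all genes called. The fluoxetine effect in WT mice differed between the sexes for Spr and Qdpr, both of cofactor synthesis, by 0.57 ± 0.14 and 0.53 ± 0.14 (female minus male). The share of all genes called in that comparison is not given here. The striatal marker mean was 0.90, 1.27, 2.17, 1.82 and -0.63 in WT fluoxetine females and -0.70 to -0.39 in the males. Under vehicle it was -0.71 to 2.16 in WT females and -0.85 to 2.44 in WT males. The part of these markers in the sex differences was not tested.

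Of 25 genes for G proteins and second messenger enzymes downstream of the receptors, 6 were higher and 0 lower under lithium in WT mice, beside 8.53% of all genes called, a median log2 difference of 0.05 beside -0.01 for all genes. They were Adcy1 (0.42 ± 0.07) and Adcy9 (0.39 ± 0.09), which make cyclic AMP, Kcnj6 (0.30 ± 0.07), a potassium channel opened by inhibitory G proteins, Gnaz (0.22 ± 0.05), Plcb1 (0.17 ± 0.05) and Gnaq (0.13 ± 0.04). Over both genotypes 6 were higher and 2 lower under lithium, beside 13.3% of all genes called, with Gnai2 (-0.11 ± 0.03) and Gna11 (-0.09 ± 0.03) the lower ones. The higher ones were Adcy1 (0.25 ± 0.05), Kcnj6 (0.19 ± 0.05), Adcy9 (0.18 ± 0.06), Plcb1 (0.14 ± 0.04), Gnaz (0.10 ± 0.04) and Gnao1 (0.08 ± 0.03). In fluoxetine against lithium, Adcy1 (-0.19 ± 0.05) and Kcnj6 (-0.16 ± 0.05) were lower, beside 4.66% of all genes called. Under fluoxetine over both genotypes 0 were higher and 1 was lower, Gnai2 at -0.09 ± 0.03, beside 4.75% of all genes called. Between genotypes over all treatments none of the 25 passed (beside 3.74%), and under vehicle (beside 0.762%) Gnaz (0.21 ± 0.05) and Gnaq (0.16 ± 0.04) were higher in HT mice. Without WT vehicle male 2, the genes called under vehicle went from 127 to 48. Those called under lithium in WT mice went from 1421 to 909. The calls on the genes of this list were not recomputed without that library.

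Of 16 genes for receptor partners, chaperones and RNA editing, 1 was lower in HT mice over all treatments, Adarb1 at -0.12 ± 0.03, an editing enzyme, beside 3.74% of all genes called. Under fluoxetine over both genotypes Rgs2 (-0.20 ± 0.06) and Rgs19 (-0.20 ± 0.06), which shorten G protein signals, were lower, beside 4.75% of all genes called. Under lithium over both genotypes, beside 13.3% of all genes called, 3 were higher, Adarb1 (0.14 ± 0.04), Ric3 (0.09 ± 0.03) and Arrb1 (0.08 ± 0.03), and 2 were lower, Arrb2 (-0.12 ± 0.03) and Grk2 (-0.09 ± 0.03), an arrestin and a receptor kinase. In WT mice alone Adarb1 (0.18 ± 0.06) and Ric3 (0.13 ± 0.04), a chaperone, were higher under lithium, beside 8.53% of all genes called. The fluoxetine effect on Adarb2 in WT mice differed between the sexes by -1.02 ± 0.28 (female minus male). This is the comparison in which the striatal markers of the WT fluoxetine females and males lay apart, and their part was not tested.

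Within groups, several receptors moved with the striatal markers. Over 57 libraries, as deviations from the 12 group means, Htr4 had a Pearson r of 0.72 and a Spearman rho of 0.67 with the striatal marker mean (permutation p = 1e-05, the smallest that 100000 permutations give, for both). Its adjusted p over the 30 relations computed was 7.5e-05 for r and 0.0003 for rho, and r was 0.68 without the 2 libraries farthest from the median. Htr2c had r of 0.61 and rho of 0.50 (permutation p adjusted 7.5e-05 and 0.00068), and 0.56 without those 2 libraries. Htr1b had r of 0.60 and rho of 0.50 (permutation p adjusted 7.5e-05 and 0.00068), and 0.51 without them. Htr3a ran the other way, with r of -0.58 and rho of -0.57 (permutation p adjusted 7.5e-05 and 0.0003), and -0.53 without them. Tph2 had r of -0.26 and rho of -0.23 (permutation p adjusted 0.11 and 0.18). Libraries with more striatal marker RNA thus held more Htr4, Htr2c and Htr1b and less Htr3a, while Htr2a (r = 0.01, adjusted permutation p = 0.95) showed no such relation.

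The other relations were with the mean of the CGE (caudal ganglionic eminence) interneuron markers and with the length trend. The mean of 17 olfactory bulb markers also varied, with an SD within an arm from 0.54 (WT lithium) to 1.09 (WT fluoxetine) on the log2 scale. Its part in the relations with the CGE markers was not tested. Htr3a, carried by CGE interneurons, had r of 0.06 and rho of 0.14 with the CGE marker mean (permutation p adjusted 0.71 and 0.40). Htr5a had r of -0.44 and rho of -0.46 with it (permutation p adjusted 0.0030 and 0.0023), and -0.42 without the 2 farthest libraries. Htr1b had r of -0.44 and rho of -0.37 (permutation p adjusted 0.0030 and 0.021), and -0.28 without them. Htr1a had r of -0.43 and rho of -0.29 (permutation p adjusted 0.0041 and 0.092), and -0.25 without them. Htr2a, Htr4 and Htr7 passed for r (-0.31, -0.31 and 0.33) and not for rho. With the length trend Htr1f had r of 0.43 and rho of 0.42 (permutation p adjusted 0.0030 and 0.0062), and 0.42 without the 2 farthest. Htr3a had r of -0.39 and rho of -0.30 with the length trend (permutation p adjusted 0.0094 and 0.086), and -0.31 without them.

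**Figure D5:**
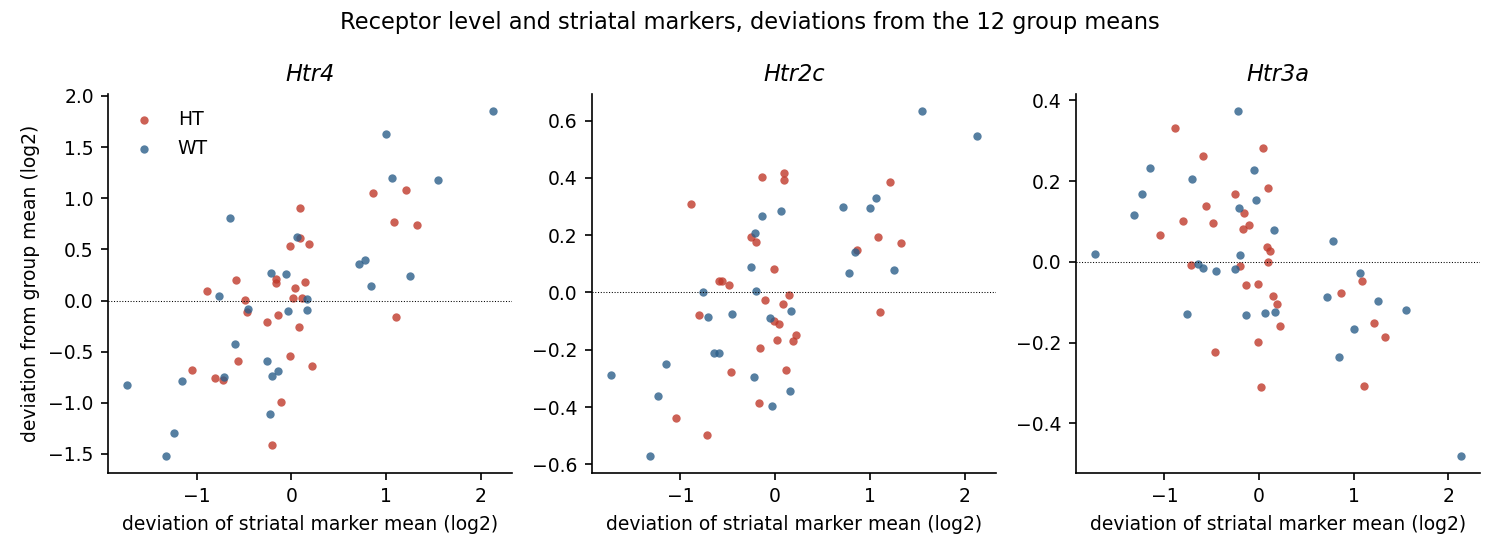
Deviation of Htr4, Htr2c and Htr3a from their group means (log2) against the deviation of the mean of 21 striatal markers, 1 point per library, HT red and WT blue. Htr4 (r = 0.72) and Htr2c (r = 0.61) run up with the markers and Htr3a (r = -0.58) runs down.

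The genes whose deviations followed each member most closely are given as a description over the same 57 libraries, which share depth, dissection and normalization. Htr2c had the closest, Lmo3 (r = 0.94), followed by Klhl13 and Strip2 (0.87 each). Htr1b was closest to Smpd3 (0.84), Htr4 to Filip1 (0.78), Rgs9 and Zfp503 (0.76 each), Htr1a to Mtmr7 (0.76) and Htr5a to Ywhah (0.74). Weaker ones were Mtfp1 with Htr3a (0.65), Klf9 with Htr2a (0.63), Epb41l3 with Htr1f (0.62) and Kcna4 with Htr7 (0.59). Tph2 had the weakest, with D130017N08Rik (0.47) and Blmh (0.45).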

How the data were processed

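Per the labels' protocols, libraries were made from prefrontal cortex RNA with a stranded mRNA kit. The deposited signal is a normalized estimated count per gene. The tools named in the submitters' processing notes are DESeq2 1.19.11, Salmon 0.11.2 and R 3.6.0, with GRCm38. Neither the annotation release nor the strand setting is stated in the sources. The values are not whole, so read depth is unknown and no count test was run.

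The test was limma (version 3.58.1, R 4.3.3, trend and robust moderation) on log2(value + 1) for 16659 genes with a mean of at least 10. All 57 libraries entered 1 fit of the 12 groups of genotype, drug and sex. Effects are means of the female and the male effect. P-values were Benjamini-Hochberg adjusted over all genes tested and called under 0.05. A pseudocount understates changes of low genes. The fit was tested on simulated data with 200 changed genes. Correlations used permutation tests (scipy 1.17.1, numpy 2.4.6).

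The members and gene lists were chosen with earlier results of these data known. Named genes are the members, list genes that passed in any comparison, 7 genes of serotonin neurons whatever their result, and the genes with the highest correlation to each member. Coordinates are GENCODE vM21 on GRCm38. No litter is labelled, so the p-values rest on the spread among these samples alone, which may be technical. Alternatives were other pseudocounts, filters, normalizations, designs, weights, blocks and covariates, and leaving out each library.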

Additional observations from a re-analysis of the deposited data

Results flagged for a closer look

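In 3 of 120 combinations of a member and a group of 4 or 5 libraries, 1 library lay far from the others of its group by Dixon's criterion, which chance meets in about 1 in 20 groups. Tph2 was 39.6 normalized counts in WT fluoxetine female 5, against 20.2 to 22.6 in the other females of that group. Htr1a was 745 in HT vehicle male 3, against 596 to 636 in the other males. Htr2c was 2280 in HT lithium female 4, against 1518 to 1724 in the other females.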

How the results depend on the processing

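The Tph2 difference over all treatments kept its direction and its call in all 13 alternatives that tested it, with log2 differences from -0.33 (pseudocount 10) to -0.53, and at a minimum mean of 50 it was not tested. Of the members called between genotypes under vehicle, 1 became 0 with no filter, a minimum mean of 50, quantile normalization, only the groups compared, 6 arms with sex as a term, or array weights. Over all treatments 3 became 1 with no filter, and Htr1f alone was also lost with quantile normalization (adjusted p = 0.054) and with 6 arms with sex as a term (0.051), while the striatal marker mean as a term lost Htr1f (0.089) and Htr3a (0.12) and gained Htr1b (0.032). Under lithium in WT mice 1 became 2 with the striatal marker mean as a term and 0 with the length trend as a term, and over both genotypes 1 likewise became 2 and 0. In the drug-treated libraries 1 became 0 with pseudocount 10, no filter, a minimum mean of 50, median centring, 6 arms with sex as a term, or a replicate block by library name, and 2 with array weights or the length trend. The cause was not tested. Leaving out each library gave 0 to 1 called members under vehicle, 1 to 3 over all treatments, 1 under lithium in WT mice, 1 to 2 under lithium over both genotypes, 0 to 2 in the drug-treated libraries and 0 in the other comparisons whose counts were recomputed. Under fluoxetine and between the drugs 0 members were called in every alternative. Replicate numbers did not pair the libraries: deviations of same-numbered libraries correlated at -0.0077 on average, 28 of 300 pairs were over 0.1, and 10 of 57 libraries correlated best with their own number. With the replicate block the Tph2 difference over all treatments was -0.51 (adjusted p = 0.00066) and the counts of called members were as without it. Low levels limit Tph2 and Htr4 most.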
